A study of Homo sapiens with 72 samples.

Results

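The 35 genes described here are 22 glycolytic enzymes and sugar or lactate transporters and 13 other targets of the hypoxia-inducible factors (HIFs). They were chosen by name, as members of the pathway or known HIF targets, and make up 35 of the 55411 genes to which transcripts of the deposited files could be assigned. RNA was sequenced from PEO1, an established high-grade serous ovarian cancer cell line, in 72 libraries. Cells received DMSO (Vehicle) or 8.5 µM rucaparib, a fluorescent inhibitor of poly(ADP-ribose) polymerase, for 2 h or 24 h. Rucaparib-treated cells were either taken whole (Ruc_Total) or sorted by flow cytometry into the 20% of lowest (Ruc_Low) and the 20% of highest (Ruc_High) drug fluorescence. Each of the 8 groups of gate, treatment and time held 3 replicates of 3 libraries, which were summed to give 24 samples. Unsorted cells were scraped straight into lysis buffer and sorted cells were brought into suspension first, so harvest and sorting cannot be told apart in a comparison of sorted with unsorted cells. No untreated cells were sorted, and the series held a single cell line. The labels name no exposure to low oxygen in any group.

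Glycolysis splits glucose into pyruvate, which is reduced to lactate and exported or passed to the mitochondria. HIFs are transcription factors whose alpha subunits are marked by oxygen-dependent prolyl hydroxylases for degradation through the VHL ubiquitin ligase. When oxygen is short the alpha subunits persist, pair with ARNT and bind a short core element in the promoters of glycolytic genes and of genes for vessel growth, pH control, mitophagy and collagen modification. Many tumour cells run glycolysis at a high rate with oxygen present.

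Of the 35 genes, 30 had a promoter in the RefSeq table used (GRCh38.p14, 250 bases before to 50 bases after a start site), and VEGFA, SLC2A3, SLC16A1, NDRG1 and BNIP3L had none. The core was searched as ACGTG or GCGTG on both strands, so as CACGT or CACGC when read on the other strand, and matches inside the palindrome CACGTG were counted apart. At least 1 core match was held by 34 of 56 promoters of these genes (60.7%), against 15933 of all 35116 promoters (45.4%). For glycolytic members it was 25 of 44 and for the other hypoxia targets 9 of 12. The palindrome was present in 7 of the 56 promoters and in 7.26% of all. The sequences printed are those of the enzymes that differed between sorted and unsorted cells, with the core matches in capitals. For TPI1 (chr12:6867855-6868104, plus strand, 1 of its 2 start sites in the table) and ENO1 (chr1:8878687-8878936, minus strand) they are the 250 bases before the start, and for PKM (chr15:72231161-72231190, minus strand) and LDHB (chr12:21657798-21657827, minus strand), whose match lay after the start, 30 bases around it.
TPI1: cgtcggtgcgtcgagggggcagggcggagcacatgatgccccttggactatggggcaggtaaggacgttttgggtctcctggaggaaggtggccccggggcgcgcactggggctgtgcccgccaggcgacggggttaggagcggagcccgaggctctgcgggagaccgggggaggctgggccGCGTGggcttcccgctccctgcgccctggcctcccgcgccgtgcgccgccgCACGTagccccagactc
ENO1: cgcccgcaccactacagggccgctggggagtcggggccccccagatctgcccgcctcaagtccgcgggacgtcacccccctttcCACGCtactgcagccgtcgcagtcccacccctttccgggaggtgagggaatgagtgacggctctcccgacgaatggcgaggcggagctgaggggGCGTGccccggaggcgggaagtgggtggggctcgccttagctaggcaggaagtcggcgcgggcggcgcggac
PKM: gcacagcagctgCACGCgccgtggctccgg
LDHB: ccggaggagacgCACGCagctgactttgtc
TPI1 and ENO1 each held 2 core matches in these windows, and PKM and LDHB 1 each. Where a gene had several start sites, the promoter with the most core matches was taken for printing. A match describes letters, not a bound site.

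Libraries held 17391033 to 38899905 estimated reads (median 33431403), and the transcripts behind their reads were 2255 to 3299 bases long on average. The PEO1 cells carried the markers of their origin: PAX8, WT1, MUC16, EPCAM, KRT7, KRT8, KRT18, ESR1 and MSLN were all detected in every sample, with a summed level of 9836 to 14560 TPM (a level per transcript length, scaled to a fixed total). Defining markers of blood (PTPRC, CD3E, HBB), endothelium (PECAM1, VWF) and fibroblasts (DCN, PDGFRB, LUM) were at 0.613 TPM or less. CD68 (5.78 to 19.1 TPM), CDH5 (1.71 to 5.15 TPM) and COL1A1 (1.01 to 6.13 TPM) were the exceptions. In bulk RNA, fewer cells that express a gene and less RNA per cell cannot be told apart.

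The 35 genes spanned a wide range of levels, and GAPDH, PKM, LDHB and ENO1 led the order. Over the 24 samples GAPDH, which oxidises glyceraldehyde 3-phosphate, averaged 3260 TPM, followed by the pyruvate kinase gene PKM (1680 TPM), the lactate dehydrogenase subunit LDHB (1302 TPM), the enolase ENO1 (1007 TPM), the aldolase ALDOA (760 TPM) and the triose phosphate isomerase TPI1 (757 TPM). PGK1, GPI and PGAM1 followed with 410, 260 and 244 TPM. The ranges of ALDOA (603 to 950 TPM) and TPI1 (594 to 994 TPM) overlapped over the samples, as did those of LDHB (1007 to 2002 TPM) and ENO1 (775 to 1247 TPM). The enzymes that commit glucose to the pathway were far lower: the phosphofructokinases PFKL, PFKP and PFKM averaged 89.1, 59 and 32.1 TPM, and the hexokinases HK1 and HK2 32.8 and 6.31 TPM. The bifunctional kinase-phosphatases PFKFB3 and PFKFB4, which set the level of the phosphofructokinase activator fructose 2,6-bisphosphate, averaged 5.76 and 1.01 TPM. Among the transporters, the glucose carrier SLC2A1 averaged 48.1 TPM and SLC2A3 0.146 TPM. The monocarboxylate exporter SLC16A3 averaged 32.5 TPM.

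Hypoxia targets outside glycolysis were led by the mitophagy receptors BNIP3L (84.8 TPM) and BNIP3 (49.7 TPM) and by NDRG1 (80.1 TPM), a stress-responsive gene. The vasodilator peptide gene ADM averaged 23.5 TPM, the collagen prolyl hydroxylase subunits P4HA2 and P4HA1 22.9 and 11.6 TPM, and the HIF prolyl hydroxylases EGLN1 and EGLN3 15.8 and 6.79 TPM. The vessel growth factor VEGFA averaged 12.3 TPM, the histone demethylase KDM3A 6.90 TPM and the pyruvate dehydrogenase kinase PDK1 5.17 TPM. Carbonic anhydrase 9 (CA9) and ANKRD37, both often used as markers of the hypoxic response, were low in these cells, with 0.939 to 6.62 and 0.564 to 2.74 TPM over the samples.

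**Figure D1:**
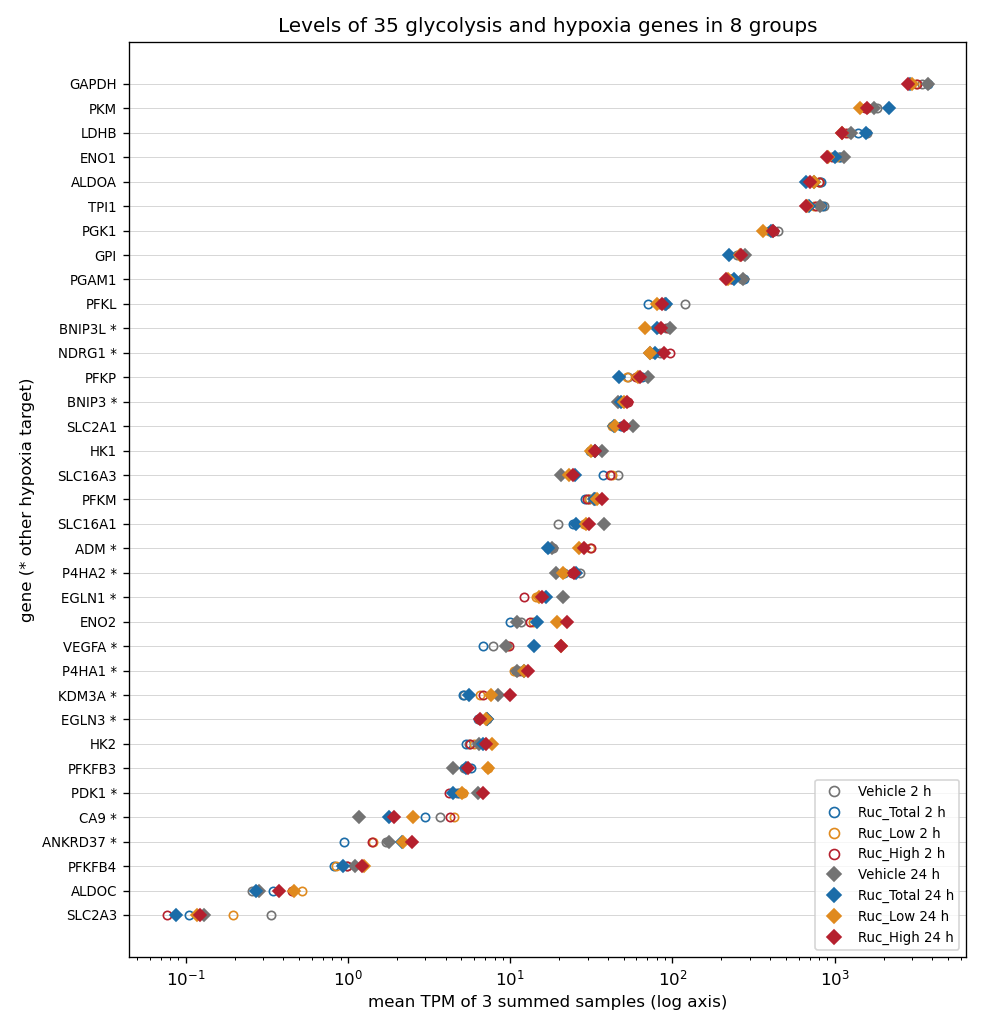
Mean level of each of the 35 genes in each of the 8 groups (x axis, TPM, log scale), ordered by the mean over 24 samples, with open circles for 2 h and filled diamonds for 24 h. GAPDH led with 3260 TPM and SLC2A3 was lowest with 0.146 TPM, and the groups of a gene lay close together beside the distance between genes.

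Summed over the 22 glycolytic members, the level was 10932 ± 444 TPM in Vehicle at 2 h and 10807 ± 501 at 24 h (mean ± SD, n = 3 samples here and below). It was 10717 ± 874 and 10201 ± 740 TPM in Ruc_Total, 9746 ± 801 and 9070 ± 772 in Ruc_Low, and 9720 ± 615 and 9055 ± 824 in Ruc_High. The 13 other hypoxia targets together came to 296 ± 24.6 TPM at the lowest (Ruc_Total at 2 h) and 356 ± 55.4 TPM at the highest (Ruc_High at 24 h). One isozyme dominated most steps. ALDOC made up 0.032% to 0.0647% of aldolase TPM by group means, and HK2 14.6% to 19.6% of hexokinase TPM. The neuronal enolase ENO2 held a small but variable part of enolase TPM. At 2 h it was 1.10 ± 0.502% in Vehicle, 0.94 ± 0.324% in Ruc_Total, 1.38 ± 0.359% in Ruc_Low and 1.4 ± 0.413% in Ruc_High. At 24 h it was 0.963 ± 0.24% in Vehicle, 1.51 ± 0.656% in Ruc_Total, 2.11 ± 0.385% in Ruc_Low and 2.53 ± 0.708% in Ruc_High. Phosphofructokinase was the mixed step, with PFKL at 43% to 56.7% and PFKP at 26.9% to 39.5% by group means.

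At 24 h 4 glycolytic enzymes held a smaller share of reads in sorted than in unsorted treated cells, as did many genes outside the list. Genes were tested with edgeR's quasi-likelihood test on counts of all 24 samples and called at an adjusted p under 0.05 (Benjamini-Hochberg over 19834 genes), and all 35 members passed the filter on low counts. In the mean of Ruc_Low and Ruc_High against Ruc_Total at 24 h, 4 of 35 members were called, all lower, beside 4.95% of all genes lower and 9.03% called in either direction. The 4 were PKM, TPI1, ENO1 and LDHB. In GENCODE (GRCh38) these protein-coding genes lie at chr15:72199029-72231822 (PKM, minus strand), chr12:6867119-6870948 (TPI1, plus strand), chr1:8861000-8879250 (ENO1, minus strand) and chr12:21635342-21757857 (LDHB, minus strand). In TPM, TPI1 averaged 698 in Ruc_Total, 677 in Ruc_Low and 666 in Ruc_High at 24 h, and ENO1 1003, 915 and 893. PKM averaged 2177, 1438 and 1577 TPM and LDHB 1566, 1107 and 1108 TPM in the same order. The median log2 fold change of the glycolytic members was -0.08 and that of all genes 0.01. Of the 9 markers of the cell line, KRT7 was lower in the same comparison (-0.44 ± 0.13, adjusted p = 0.0421) and the median was -0.17. The part of transcript length and of handling in these differences was not tested beyond the fits given here.

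TPI1 stood at 1127, 1088 and 755 CPM (reads of a gene scaled to a fixed library total) in replicates 1, 2 and 3 of Ruc_Total at 24 h, at 585, 677 and 760 CPM in Ruc_Low and at 619, 648 and 644 CPM in Ruc_High. In replicate 3 the values of sorted and unsorted cells met, so the groups overlapped by 1 sample. The log2 fold change was -0.60 ± 0.13 (± SE, adjusted p = 0.0118). At 2 h it had 1061, 1013 and 1012 CPM in Ruc_Total, 824, 977 and 786 CPM in Ruc_Low and 1003, 851 and 728 CPM in Ruc_High, and in Vehicle 1300, 1185 and 879 CPM at 2 h and 785, 770 and 747 CPM at 24 h.

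LDHB, the lactate dehydrogenase subunit of heart type, moved as TPI1 did over the samples. Its values at 24 h were 1437, 1338 and 762 CPM in Ruc_Total, 724, 834 and 799 CPM in Ruc_Low, and 728, 823 and 660 CPM in Ruc_High. Again replicate 3 of Ruc_Total lay among the sorted samples and the other two far above (log2 fold change -0.63 ± 0.18, adjusted p = 0.0386). At 2 h LDHB had 1383, 1015 and 1087 CPM in Ruc_Total, 1018, 983 and 824 CPM in Ruc_Low and 1138, 856 and 749 CPM in Ruc_High, and Vehicle had 1538, 1263 and 887 CPM at 2 h and 914, 845 and 751 CPM at 24 h.

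PKM and ENO1, the last enzyme of glycolysis and the one before it, differed with less overlap. PKM had 3256, 3085 and 2768 CPM in Ruc_Total at 24 h, 2142, 2196 and 2584 CPM in Ruc_Low and 2206, 2201 and 2459 CPM in Ruc_High. All 6 sorted samples lay under all 3 unsorted ones (log2 fold change -0.40 ± 0.08, adjusted p = 0.00675). At 2 h PKM had 2843, 3316 and 3030 CPM in Ruc_Total, 2430, 2694 and 2655 CPM in Ruc_Low and 2681, 2535 and 2575 CPM in Ruc_High, and Vehicle had 3163, 3163 and 2875 CPM at 2 h and 2633, 2611 and 2818 CPM at 24 h. ENO1 had 1819, 1709 and 1653 CPM in Ruc_Total at 24 h, 1307, 1314 and 1644 CPM in Ruc_Low and 1263, 1214 and 1472 CPM in Ruc_High. The sorted samples again lay under the unsorted ones, with replicate 3 of Ruc_Low just under the nearest of them (log2 fold change -0.34 ± 0.09, adjusted p = 0.0226). At 2 h ENO1 had 1785, 2042 and 1979 CPM in Ruc_Total, 1585, 1807 and 1798 CPM in Ruc_Low and 1663, 1582 and 1683 CPM in Ruc_High, and Vehicle had 2076, 1956 and 1884 CPM at 2 h and 1649, 1540 and 1696 CPM at 24 h.

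**Figure D2:**
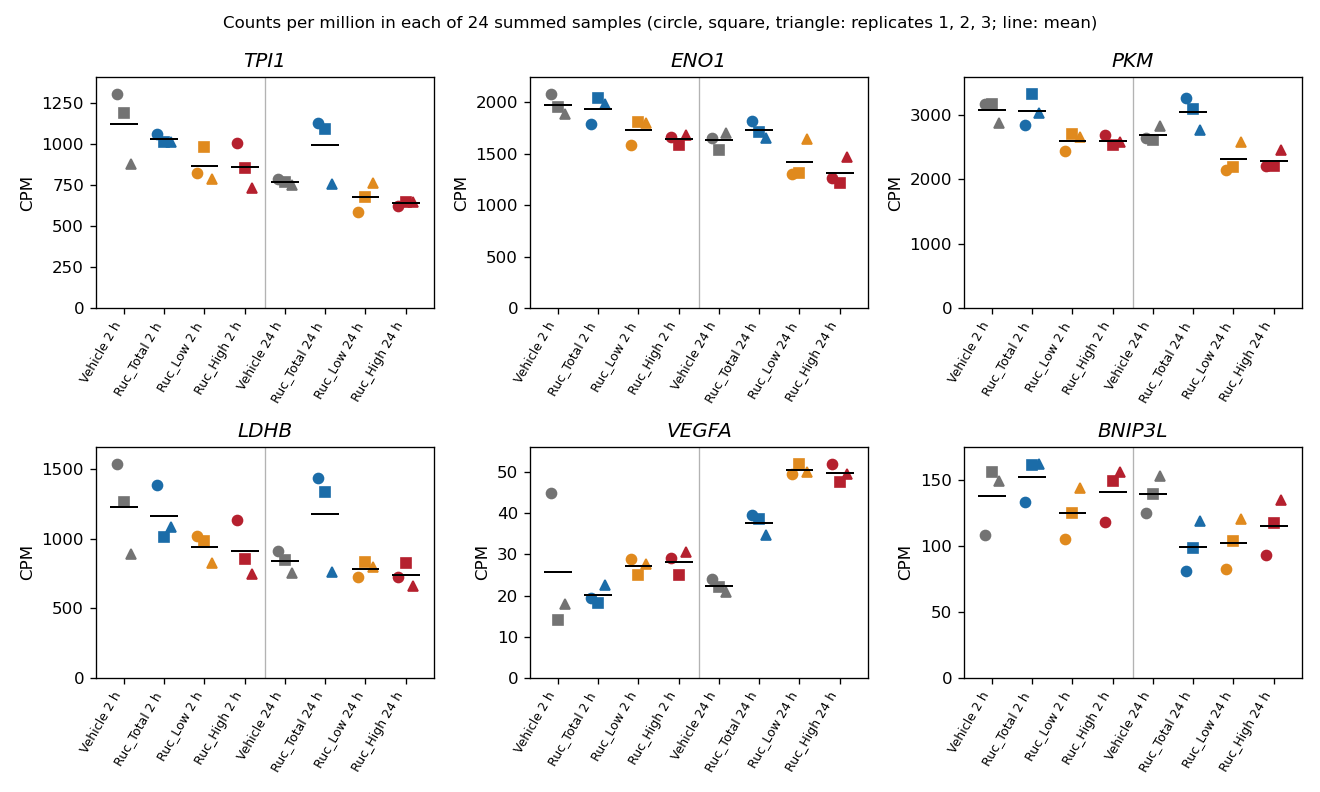
CPM (y axis) of the 5 called members and BNIP3L in each of the 24 samples, by group (x axis), with circles, squares and triangles for replicates 1, 2 and 3 and a line at the mean. PKM in all 6 sorted samples at 24 h lies under the 3 Ruc_Total samples, and VEGFA at 24 h stands in 3 separate tiers of Vehicle, Ruc_Total and sorted cells.

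These 4 calls depended on which replicates entered: without replicate 2 no member was called at 24 h, without replicate 1 none of the 4 was (adjusted p = 0.223, 0.287, 0.165 and 0.341 for TPI1, ENO1, PKM and LDHB), and without replicate 3 all 4 were, with 3 others. At 24 h the reads of Ruc_Total came from transcripts of 2746, 2711 and 3229 bases on average in replicates 1, 2 and 3, and those of the 6 sorted samples from 2984 to 3142 bases. TPI1 and LDHB were high in the 2 Ruc_Total samples with the short transcripts. With this length as a covariate and the replicate number as a block, the log2 fold changes were -0.38, -0.28, -0.33 and -0.34 for TPI1, ENO1, PKM and LDHB and all 4 passed. With an offset for effective length PKM (-0.65) and LDHB (-0.63) passed, and TPI1 (-0.17) and ENO1 (-0.25) did not. Without libraries under 2800 bases LDHB was at -0.45 with an adjusted p of 0.0847 and the other 3 passed. With no filter on low counts ENO1 and PKM did not pass, on the log2(TPM + 1) scale TPI1 and ENO1 did not, and in a fit of only these groups none of the 4 did. The replicate number alone as a block gave 12 members at 24 h, beside 24% of all genes: HK1, PFKL, PGK1, PGAM1, EGLN3 and P4HA2 were also lower, and ENO2 (0.41) and KDM3A (0.51) were higher. Of these, PFKL, PGK1, EGLN3 and P4HA2 did not pass with transcript length added.

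At 2 h no member passed between sorted and unsorted cells, beside 2.24% of all genes; 7 had an unadjusted p under 0.05, DESeq2 called 3, limma-voom on the 72 libraries 4 and limma on TPM 1. With the replicate block 6 passed, beside 14.4% of all genes. GAPDH (-0.30), PGK1 (-0.30), PGAM1 (-0.33), PKM (-0.24) and BNIP3L (-0.20) were lower, BNIP3L turning to 0.07 with the effective length offset and 0.12 on the log2(TPM + 1) scale, and ADM (0.65 ± 0.14, adjusted p = 0.00716) was higher. ADM had 47.4, 29.6 and 39.6 CPM in Ruc_Total at 2 h against 48.2 to 77.5 CPM in Ruc_Low and 48.8 to 85.0 CPM in Ruc_High, with no overlap. The change of the sorted-to-unsorted difference from 2 h to 24 h passed for 0 members, beside 0% of all genes. It had an unadjusted p under 0.05 for 0 members, beside 1086 of 19834 genes. DESeq2 and both limma fits also called 0 members.

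VEGFA (chr6:43770184-43786487, plus strand) was the called hypoxia target, and it was higher in sorted cells at 24 h than at 2 h. Its values at 2 h were 29, 25 and 27.7 CPM in Ruc_Low and 29.1, 24.9 and 30.7 CPM in Ruc_High, and at 24 h 49.6, 52 and 50 CPM in Ruc_Low and 51.9, 47.7 and 49.5 CPM in Ruc_High. The 6 samples of each time did not overlap, and the log2 fold change was 0.85 ± 0.18 (adjusted p = 0.014). Without replicate 2 or 3 the same comparison gave 0.80 and 0.90 with an adjusted p of 0.319 and 0.108. Sorted cells between the times had 2 of 35 members called, beside 3.64% of all genes, the other being ENO1 (-0.30 ± 0.07, adjusted p = 0.0236). ENO1 lost its call without replicate 1 or 2, with an adjusted p of 0.154 and 0.627, and also with no filter, with the effective length offset, on the log2(TPM + 1) scale and in a fit of only these groups.

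In unsorted cells VEGFA had 39.7, 38.7 and 34.7 CPM in Ruc_Total at 24 h, 24, 22 and 20.9 CPM in Vehicle at 24 h, 19.3, 18.2 and 22.6 CPM in Ruc_Total at 2 h and 45, 14 and 18 CPM in Vehicle at 2 h. At 24 h the tiers of Vehicle, Ruc_Total and sorted cells did not overlap. Against Vehicle the log2 fold change at 24 h was 0.76 ± 0.26 (adjusted p = 0.1). The adjusted p was 0.0314 with the replicate block and 0.264 with the block and transcript length. Against Ruc_Total sorted cells differed by 0.41 ± 0.23 (adjusted p = 0.272). The high Vehicle value at 2 h came from replicate 1, whose libraries had 50, 36.3 and 42.9 CPM. The first of these held 22092472 reads, the lowest total of its group. The mean transcript length of the sample was 2729 bases, beside 2747 bases in replicate 2, which had 14 CPM. The cause of the high value was not tested.

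Rucaparib gave no called member among unsorted cells. At 2 h 0 of 35 members passed against Vehicle, beside 0.0202% of all genes, and DESeq2, the block and both limma fits also called 0. Before adjustment 2 members had a p under 0.05, beside 1308 of 19834 genes. The 2 members were SLC2A3 (-2.36 ± 0.67) and ANKRD37 (-1.02 ± 0.39), each lower with rucaparib in all 3 replicates and most so in replicate 1. In Vehicle SLC2A3 had 2.06, 0.212 and 0.285 CPM and ANKRD37 2.12, 0.991 and 0.528 CPM, with replicate 1 the highest in both. At 24 h 0 members passed, beside 3.12% of all genes. An unadjusted p under 0.05 was held by 8 of 35 members and 4783 of 19834 genes, a similar share. DESeq2 called 2 (VEGFA and P4HA2), limma-voom on the 72 libraries 3 and limma on TPM 0.

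With the replicate block 7 members passed for rucaparib at 24 h, beside 23.3% of all genes. PFKL (0.33), ENO2 (0.42), LDHB (0.47), VEGFA (0.76) and P4HA2 (0.33) were higher, and BNIP3L (-0.50 ± 0.07, adjusted p = 0.000369) and KDM3A (-0.45) were lower. BNIP3L had 125, 139 and 153 CPM in Vehicle at 24 h and 80.7, 98.3 and 119 CPM in Ruc_Total, lower in each replicate and without overlap between the groups. With transcript length added to the block, BNIP3L stayed called (-0.46, adjusted p = 0.00386), SLC16A3 was called (-0.43), and the other 6 did not pass: PFKL was at 0.11, ENO2 at 0.23, LDHB at 0.03, VEGFA at 0.60, P4HA2 at 0.20 and KDM3A at -0.19. With the effective length offset and no block, BNIP3L was at -0.14 with an adjusted p of 0.633. The glycolytic members' median was 0.02 and that of the other hypoxia targets 0.19, beside 0.03 for all genes.

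**Figure D3:**
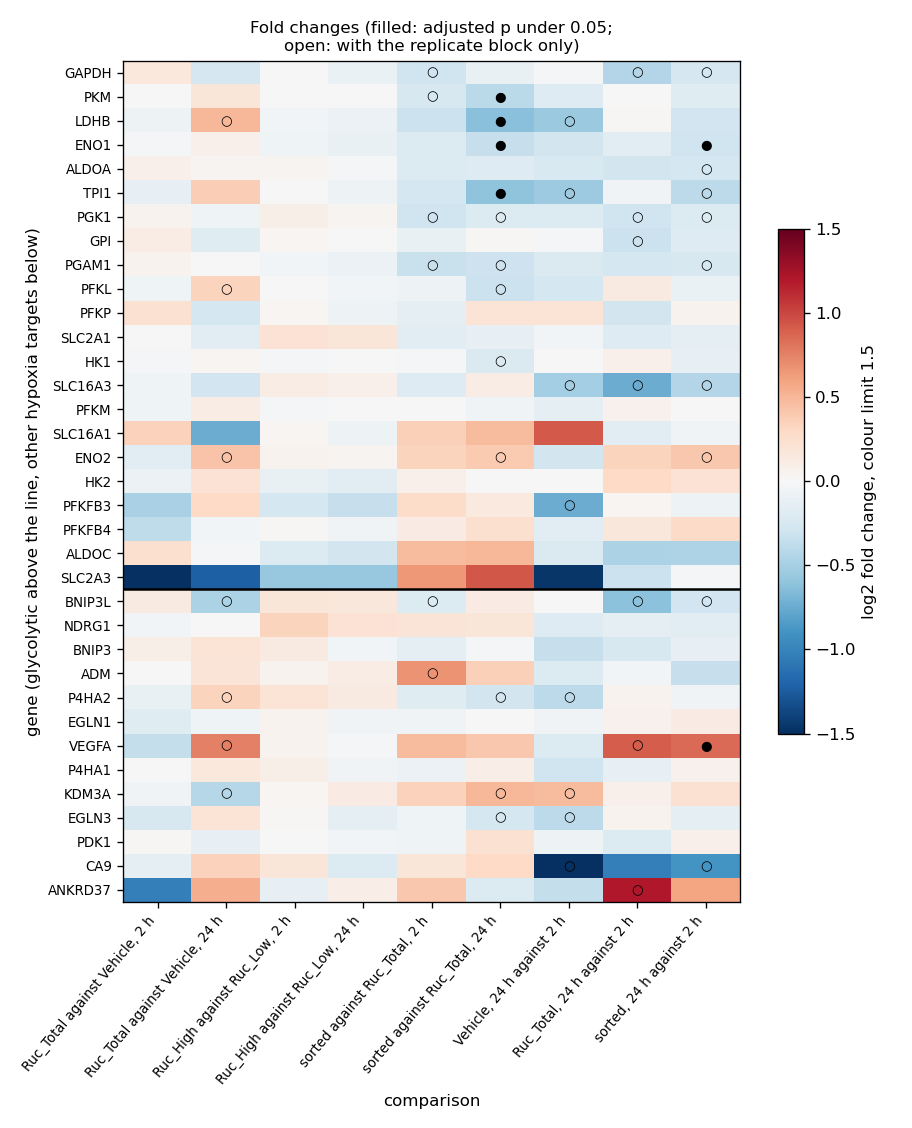
Log2 fold changes (colour, cut at 1.5 either way) of the 35 members (rows, glycolytic above the line) in 9 comparisons (columns), with filled circles at an adjusted p under 0.05 and open circles where a gene passed with the replicate block only. The 6 filled circles stand in the 2 columns of sorted cells at 24 h, and the columns of Ruc_High against Ruc_Low hold none of either kind.

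Cells with high and low drug fluorescence did not differ detectably in any of the 35 genes. Of Ruc_High against Ruc_Low 0 members passed at 2 h, beside 0.00504% of all genes, and 0 at 24 h, beside 0.106%. DESeq2, the block and both limma fits also called 0. Before adjustment 0 members had a p under 0.05 at either time, beside 639 genes at 2 h and 812 at 24 h. With the block 4 members at 2 h (P4HA2, NDRG1, BNIP3L and SLC2A1) had an unadjusted p under 0.05, beside 1222 of 19834 genes. At 24 h it was 1 member (BNIP3L), beside 1599 genes. All were higher in Ruc_High, and none of them passed after adjustment. At 2 h the differences ran from -0.57 ± 0.66 for SLC2A3, which had a median of 6.2 reads per library, to 0.33 ± 0.21 for NDRG1. At 24 h they ran from -0.57 ± 0.65 for SLC2A3 to 0.22 ± 0.21 for NDRG1. NDRG1, BNIP3L and SLC2A1 were higher in Ruc_High in all 3 replicates at both times, with log2 differences for SLC2A1 of 0.22 ± 0.13 and 0.18 ± 0.13. Glycolytic members had a median of -0.07 at 24 h (17 of 22 below 0) and of 0.00 at 2 h, and the other hypoxia targets of 0.05 at 2 h (11 of 13 above 0) and -0.02 at 24 h. The median of all genes was -0.0021 at 2 h and -0.0071 at 24 h.

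Between the times most members leaned to lower counts per library at 24 h in Vehicle without passing the test. In Vehicle, 19 of 22 glycolytic members and 11 of 13 other hypoxia targets were lower at 24 h than at 2 h, with medians of -0.21 and -0.21 beside -0.04 for all genes. None passed, beside 0.0303% of all genes; 12 had an unadjusted p under 0.05, DESeq2 called 2 (CA9 and P4HA2), limma-voom 3 and limma on TPM 0. With the block 8 passed, beside 8.27% of all genes: PFKFB3, TPI1, LDHB, SLC16A3, CA9, EGLN3 and P4HA2 were lower and KDM3A was higher. With transcript length added, 0 members passed, beside only 2 genes higher and 4 lower among all 19834. In TPM the directions in Vehicle were mixed. From 2 h to 24 h GAPDH averaged 3465 and 3757 TPM and ENO1 1058 and 1141, but TPI1 860 and 815 and LDHB 1583 and 1265. Mean lengths in Vehicle were 2729, 2747 and 3078 bases at 2 h and 3120, 3107 and 3231 bases at 24 h.

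In Ruc_Total 0 members passed between the times, beside 1.88% of all genes; 9 had an unadjusted p under 0.05, DESeq2 called 4, limma-voom 7 and limma on TPM 0. With the block 7 passed, beside 11.9%. GPI (-0.32), GAPDH (-0.44), PGK1 (-0.30), SLC16A3 (-0.72) and BNIP3L (-0.62) were lower, and VEGFA (0.91) and ANKRD37 (1.2) were higher at 24 h. These 7 also passed with transcript length added, with values of -0.71 for SLC16A3 and 0.92 for VEGFA. With the effective length offset BNIP3L was at -0.09. SLC16A3, the lactate exporter, had 37.5, 52.5 and 58.3 CPM at 2 h and 25.4, 32.5 and 31 CPM at 24 h, with log2 differences of -0.56, -0.69 and -0.91 within replicates 1, 2 and 3. In sorted cells the block gave 11 members, beside 12.2%: ALDOA, TPI1, GAPDH, PGK1, PGAM1, ENO1, SLC16A3 (-0.44), CA9 (-0.98) and BNIP3L (-0.30) were lower and ENO2 (0.39) and VEGFA (0.86) higher. With transcript length added PGK1 did not pass. CA9 was also lower with time in each replicate of Vehicle, with 5.06, 7.16 and 4.21 CPM at 2 h and 1.5, 1.51 and 2.85 CPM at 24 h.

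The rucaparib difference from Vehicle was compared between 24 h and 2 h by an interaction term. None of the 35 members passed, beside 0.116% of all genes. The unadjusted p was under 0.05 for 7 members, beside 4097 of 19834 genes. DESeq2 called 0 members, limma-voom 1 and limma on TPM 0. With the block 5 passed, beside 17.2%: VEGFA (1.05), ANKRD37 (1.44) and P4HA2 (0.45) were more positive at 24 h and GAPDH (-0.42) and BNIP3L (-0.65) more negative. BNIP3L alone stayed past the threshold with transcript length added (-0.61, adjusted p = 0.00878), but with the effective length offset it was at 0.03.

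Some members moved with the length of the transcripts in a library. Over the 72 libraries, log2 CPM correlated with mean transcript length at r = 0.83 for KDM3A, 0.81 for SLC16A1, 0.71 for HK2 and 0.70 for NDRG1, and at -0.84 for LDHB and -0.82 for TPI1. It was 0.17 for VEGFA, -0.24 for ENO1 and -0.29 for PKM. The libraries share cells, replicates and groups, and within groups the values were 0.88 for KDM3A, -0.87 for LDHB and -0.88 for TPI1. SLC16A1, the second lactate carrier, was listed at 0 in 7 libraries, all at 2 h and with mean lengths of 2255 to 2699 bases, and at up to 137 CPM elsewhere. Its summed samples ran from 1.67 to 133 CPM, so no difference between groups is read from it. PFKP ran from 3.37 to 193 CPM over the libraries.

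**Figure D4:**
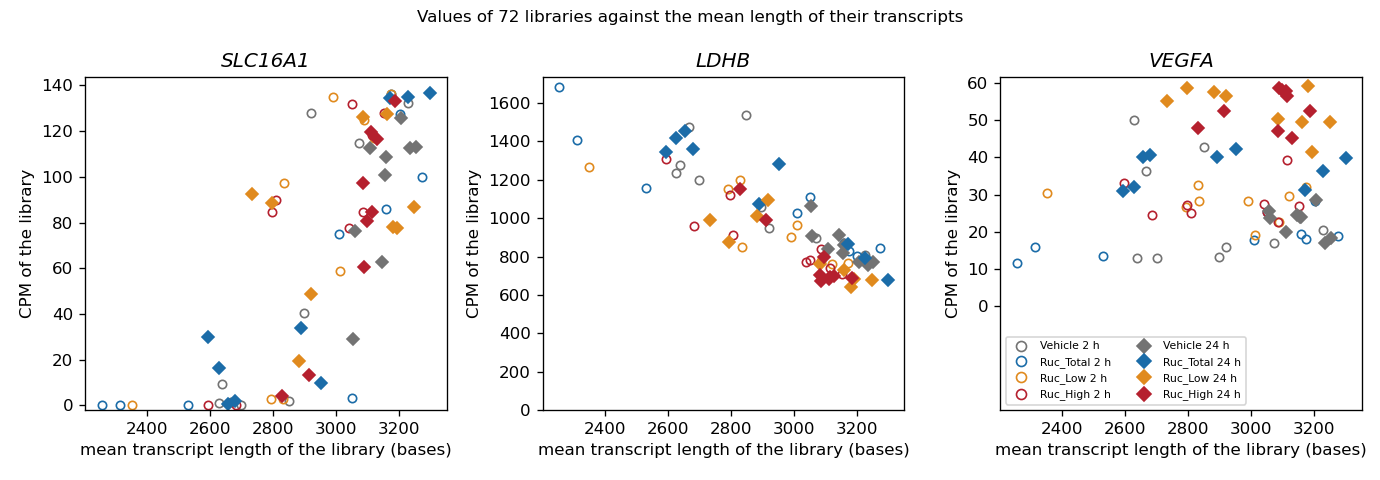
CPM of SLC16A1, LDHB and VEGFA (y axes) in 72 libraries against the mean length of the transcripts behind the reads of a library (x axis, bases), with open circles for 2 h and filled diamonds for 24 h. SLC16A1 is listed at 0 in 7 libraries of 2699 bases or fewer, LDHB falls as length grows (r = -0.84), and VEGFA shows little relation (r = 0.17), with groups that overlap over single libraries.

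The machinery that controls HIF was counted from a list of 15 further genes, of which 14 were tested. In sorted against Ruc_Total cells at 24 h 4 were lower and 0 higher, beside 4.95% of all genes lower and 9.03% in either direction. The median was -0.16, beside 0.01 for all genes. The lowest were ELOB (-1.09 ± 0.24, adjusted p = 0.0104) and RBX1 (-0.66 ± 0.18, adjusted p = 0.0316), subunits of the VHL ubiquitin ligase. With transcript length and the block they were at -0.61 and -0.41, and both passed. ELOB averaged 208 CPM in Ruc_Total, 98.8 in Ruc_Low, 97.1 in Ruc_High and 108 in Vehicle at 24 h. In the other 10 comparisons 0 of the 14 passed. Of 28 further hypoxia targets, WSB1 was higher and HIGD1A lower in sorted cells at 2 h (0.35 ± 0.09 and -0.45 ± 0.11) and at 24 h (0.48 ± 0.09 and -0.35 ± 0.11). With transcript length and the block HIGD1A at 24 h was at -0.25 with an adjusted p of 0.0718. STC2, a secreted glycoprotein, was higher in Ruc_Total at 24 h than at 2 h (0.92 ± 0.18, adjusted p = 0.0162). No other gene of the 28 passed in any of the 11 comparisons.

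Of 22 further glycolysis and sugar entry genes 19 were tested. TIGAR, a p53 target that lowers fructose 2,6-bisphosphate, was higher with rucaparib at 24 h (0.34 ± 0.08, adjusted p = 0.0312), with 34.4 CPM in Ruc_Total and 27.2 CPM in Vehicle. With transcript length and the block it was at 0.23 with an adjusted p of 0.0537. MYC, a transcription factor that also acts on glycolytic genes, was higher in sorted cells at 2 h (1.01 ± 0.14, adjusted p = 0.00135) and at 24 h (0.62 ± 0.13, adjusted p = 0.0096). MYC averaged 109 CPM in Ruc_Total, 226 in Ruc_Low and 212 in Ruc_High at 2 h. The glucose transporter SLC2A8 was lower in sorted cells at 24 h (-0.35 ± 0.11, adjusted p = 0.0462), and with transcript length and the block at -0.24 with an adjusted p of 0.0554.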

How the data were processed

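Transcripts were quantified by the authors with Salmon (version not given in the sources used here) after cutadapt 4.7, and the submitters' processing notes also name DESeq2 1.44.0 and GRCh38. The deposited files hold expected counts (estimated reads) and TPM per transcript. Of 257369 transcripts, 194437 were assigned to genes by GENCODE release 29 and the other 62932, with 9.65% to 11.7% of a library's reads, were left out, so reads given to newer transcripts of a member are not counted. Reads shared with processed pseudogenes of GAPDH, PGK1, PGAM1, TPI1, ENO1, LDHB and ALDOA are uncertain.

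The 3 libraries of a replicate and group were summed and rounded, since the study's methods give, for sorting experiments, biological replicates on different days with technical repeats from separate wells. Genes that passed filterByExpr were tested in R 4.3.3 by the quasi-likelihood test of edgeR 4.0.16, with TMM normalization. Read as days, the replicate numbers pair samples: deviations of same-numbered samples correlated at a median r of 0.274 (lowest -0.052, 84 pairs) and others at -0.115. Where nothing says that samples are separate cultures, p-values measure only the spread between them. Alternatives used DESeq2 1.42.0 and limma 3.58.1, log2(TPM + 1) with a mean TPM of at least 1 included. The test was tried on simulated counts. The members, lists and tests were chosen with earlier results of these data known. Named are all members, with values per sample for those called in a comparison of groups, and up to 2 called genes of each other list per direction and comparison. BNIP3L, ADM, SLC16A3, CA9, SLC2A3 and ANKRD37 were chosen for values per sample after their values were seen. SLC2A6 and PCK2 were not analysed here. A result for 1 gene of the other lists is not reported here. The depth of the libraries and counting error limit SLC2A3 and ALDOC most.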

Additional observations from a re-analysis of the deposited data

Results flagged for a closer look

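Among 9 measures in the 8 groups of 9 libraries, 144 ends of a range were looked at and 11 values, from 8 libraries, stood apart from those of the other libraries of their group; chance alone flags about 1 group in 20. For the total of reads these were 22092472 in Vehicle at 2 h (replicate 1, next 32399152), 17391033 in Ruc_Low at 2 h (replicate 2, next 31407309), 29040832 in Ruc_High at 2 h (replicate 2), 38009444 in Vehicle at 24 h (replicate 2, highest) and 27747511 in Ruc_Low at 24 h (replicate 1). For mean transcript length it was 2351 bases in Ruc_Low at 2 h (replicate 2, next 2792). TPI1 was highest at 1433 CPM in Ruc_Low at 2 h (replicate 2, next 962) and at 881 CPM in Vehicle at 24 h (replicate 1, next 795). ENO1 was highest at 2378 CPM in Vehicle at 2 h (replicate 1, next 1904) and lowest at 1450 CPM in Vehicle at 24 h (replicate 2, next 1607). PKM was highest at 3633 CPM in Ruc_Total at 2 h (replicate 2, next 2940). No member passed edgeR's interaction test without the block for a change of the rucaparib or sorting difference between 2 h and 24 h. For rucaparib 7 members had an unadjusted p under 0.05 in that test, beside 4097 of 19834 genes, and limma-voom called 1. For sorting both counts were 0, beside 1086 genes at an unadjusted p under 0.05.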

How the results depend on the processing

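Counts of members called moved with the processing, mostly upwards. The replicate block gave 7 for rucaparib at 24 h, 6 and 12 for sorted against Ruc_Total at 2 h and 24 h, 8, 7 and 11 for 24 h against 2 h in Vehicle, Ruc_Total and sorted cells, and 5 for the rucaparib interaction. DESeq2 gave 2, 3, 8, 2, 4 and 8 in the first 6 of these in the same order, and limma-voom on 72 libraries 3, 4, 9, 3, 7, 10 and, for the interaction, 1. Over all genes in that order DESeq2 called 1156, 745, 1216, 102, 710 and 787 higher and 862, 566, 1684, 138, 461 and 666 lower. Limma-voom called 881, 778, 1164, 53, 609, 891 and 343 higher and 757, 246, 944, 99, 340, 607 and 188 lower. DESeq2 tested 14437 to 18652 genes in these comparisons and limma-voom 16790. Transcript length with the block gave 2 for rucaparib at 24 h, 10 and 9 for sorted against Ruc_Total, 10 and 11 between times in Ruc_Total and sorted cells, and 1 for the interaction. In that order it called 578, 1747, 1550, 2097, 1480 and 300 higher and 530, 2846, 1939, 2493, 1214 and 432 lower of 19834 genes. For sorted against Ruc_Total at 24 h, no filter gave 2, an effective length offset 2 and a fit of only those groups 0. Over all genes no filter called 474 higher and 569 lower of 43877, and only those groups 190 and 18 of 18653. Sorted against Ruc_Total at 2 h gave 1 with only its groups, 1 with log2(TPM + 1) and 1 without libraries under 2800 bases. Over all genes these fits called 278, 87 and 173 higher and 136, 9 and 73 lower, of 18490, 13443 and 18563. Sorted cells between times gave 1 with no filter, 1 with the offset, 1 with log2(TPM + 1) and 6 without libraries under 2800 bases. Over all genes these called 137, 109, 286 and 536 higher and 131, 84, 44 and 561 lower, of 43877, 19834, 13443 and 18563. Without the 2 libraries of lowest total, Ruc_Total between times gave 1, beside 354 genes higher and 251 lower of 19667. With a replicate left out, counts ran from 0 to 3 for rucaparib at 24 h, 0 to 7 for sorted against Ruc_Total at 24 h, 0 to 2 and 0 to 3 between times in Ruc_Total and sorted cells, and 0 to 4 for the interaction, and were 0 in the other 6 comparisons. Over all genes, sorted against Ruc_Total at 24 h gave 810 higher and 982 lower, but 478 and 330 with the offset, 583 and 203 with log2(TPM + 1), and without replicates 1, 2 and 3 in turn 356 and 24, 5 and 0, and 1111 and 1714. On the log2(TPM + 1) scale the median of all genes was 0.17 in Vehicle and 0.12 in sorted cells between times. For these counts the cause was not tested.

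Of 56 gene and comparison pairs called with or without the block, 601 of 784 alternative values kept direction and side of the threshold, 152 passed where they had not, 27 no longer passed and 4 changed sign: BNIP3L in sorted against Ruc_Total at 2 h (0.07 with the offset, 0.12 with log2(TPM + 1)) and in the interaction (0.03 with the offset), and EGLN3 in Vehicle between times (0.01 with log2(TPM + 1)). The block ended none of the 6 calls made without it.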

Other observations

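Downstream and beside glycolysis, genes that feed pyruvate into the mitochondria were counted from a list of 28. In sorted against Ruc_Total cells at 24 h 8 were lower and 1 higher, beside 4.95% of all genes lower and 9.03% in either direction. The median was -0.15 beside 0.01 for all genes. At 2 h 3 were lower, beside 2.24% of all genes called in either direction. The median there was -0.17, beside -0.01 for all genes. Among those lower at 24 h were the pyruvate carrier subunit MPC2 (-0.56 ± 0.14, adjusted p = 0.0192 from edgeR) and malate dehydrogenase MDH2 (-0.51 ± 0.12), and at 2 h SUCLG1 (-0.42 ± 0.10) and SDHD (-0.36 ± 0.07). PDK4, which switches off pyruvate dehydrogenase, was lower with rucaparib at 24 h (-1.39 ± 0.30) and higher in sorted than in unsorted treated cells (1.04 ± 0.27). It averaged 1.57 CPM in Vehicle, 0.595 in Ruc_Total, 1 in Ruc_Low and 1.5 in Ruc_High, and both comparisons share the Ruc_Total samples. In Ruc_Total SUCLA2 was lower at 24 h than at 2 h (-0.34 ± 0.09). In sorted cells PDHB was lower at 24 h than at 2 h (-0.27 ± 0.07). Of 14 pentose phosphate and glycogen genes, PGLS was higher (0.93 ± 0.24) with rucaparib at 24 h. PGLS (-0.66 ± 0.20) and the transaldolase TALDO1 (-0.52 ± 0.11) were lower in sorted than in Ruc_Total cells at 24 h. With transcript length and the block PGLS for rucaparib was at 0.47 with an adjusted p of 0.0721, and in sorted cells at 24 h MPC2 was at -0.31, MDH2 at -0.31, PGLS at -0.39 and TALDO1 at -0.34, all past the threshold.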
